A study of Mus musculus with 16 samples.

Results

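The genotype by exercise interaction asks, gene by gene, whether the transcriptional response of mouse skeletal muscle to a single run differed between mice with and without the oxidation-sensitive methionines of CaMKIIγ. It was computed as the exercise effect in VV mice minus the exercise effect in MM (WT) mice, on log2(FPKM + 0.1), where FPKM is the expression level of the deposited table, scaled for transcript length and library size. A value below 0 means that the exercised-to-sedentary ratio was smaller in VV than in MM mice, and a value of -1 is a VV fold 0.5 times the MM fold. Of 18872 gene entries, the 10519 whose level averaged 1 FPKM or more over all 16 mice were taken, and they were chosen by level alone, not by any difference between groups. All mice were male C57BL/6J animals between 13 and 15 weeks of age, and whole quadriceps was sequenced. MM (WT) mice were wild-type littermates, and VV mice were homozygous for a knock-in of Camk2g, in every cell of the body, that replaces the methionine pair at residues 281 and 282 by valines. Exercised mice, 4 of each genotype, were sampled 3 h after a 350 m run on an inclined treadmill, and sedentary mice, again 4 of each genotype, did not run. Mice that did not complete the distance had been excluded, so the exercised VV group holds only animals able to finish.

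CaMKII is a multifunctional kinase that is switched on by calcium-bound calmodulin at every contraction. Its regulatory segment can then be modified, by autophosphorylation or by oxidation of its methionine pair, so that activity outlasts the calcium signal. In muscle, a bout of running raises a first wave of transcripts within hours: immediate early transcription factors, heat shock proteins, sarcomeric stress genes, antioxidant genes and regulators of mitochondrial and fuel metabolism, the best known being Ppargc1a, the coactivator PGC-1α.

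The codons that differ between the genotypes are shown because they define the contrast. In the GRCm38 genome with GENCODE M21 annotation they lie in exon 11 of Camk2g at chr14:20760454-20760459, minus strand, in all 4 annotated coding transcripts that begin with ATG, and the 60-base wild-type coding stretch of the 3 that number them 281 and 282 is given with both methionine codons in capitals.
Camk2g: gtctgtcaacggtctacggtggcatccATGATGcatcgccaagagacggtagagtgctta

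Camk2g itself was expressed in all mice. It was at 65.6, 70.7, 66.7 and 72.9 FPKM in sedentary MM mice 2032-3, 2074-1, 2127-1 and 2127-3, at 61.5, 57.7, 63.0 and 59.1 FPKM in exercised MM mice 2161-4, 2161-9, 2246-4 and 2297-3, at 61.6, 57.3, 63.7 and 59.9 FPKM in sedentary VV mice 2074-2, 2074-5, 2126-4 and 2296-5, and at 56.9, 56.7, 50.5 and 54.1 FPKM in exercised VV mice 2161-5, 2161-7, 2296-2 and 2296-3. The sedentary MM mice were the highest and the exercised VV mice the lowest, with no overlap between these groups, while the other 2 groups lay between and overlapped each other. Its interaction was 0.04 (95% interval -0.15 to 0.23), so the exercise effect on the transcript of the edited gene differed between genotypes by no more than that interval allows. The other CaMKII isoforms in the table had interactions of -0.05 (Camk2a, interval -0.23 to 0.14), 0.03 (Camk2b, -0.22 to 0.29) and 0.03 (Camk2d, -0.26 to 0.33). All later lists of FPKM values follow this order of mice.

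The 16 libraries were alike in the totals that the table gives. The FPKM sum per mouse was 470634 to 513468, between 15263 and 15779 entries were above 0, and skeletal muscle markers such as Ckm and Acta1 were high in every mouse, with their summed FPKM between 22827 and 46988. FPKM keeps no read depth, so the depth behind each value is unknown. The number before the dash of a mouse's name is shared by some mice of different groups, and what it stands for is not given here. Only the exercised groups share 2161 and only the sedentary groups share 2074 between genotypes. Values within a shared number are given beside the main results and rest on these mice alone. They compare exercised VV mice 2161-5 and 2161-7 with exercised MM mice 2161-4 and 2161-9. For sedentary mice they compare VV mice 2074-2 and 2074-5 with 2074-1, the only MM mouse there. All p-values measure the spread between these mice.

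No gene passed the test of the interaction. With limma's moderated test on all 16 mice and Benjamini-Hochberg adjustment, 0 of 10519 genes (0%) had an adjusted p under 0.05, and the smallest adjusted p was 0.9997. At an unadjusted p under 0.05 there were 195 genes (1.85%), 160 of them below 0 and 35 above, where 526 would be reached on average if no gene differed. No other setting of the same fit over all 16 mice called a gene either, including array weights (488 genes at unadjusted p under 0.05) and the number before the dash as a fixed block (466 genes). A single gene was called when 1 of 2 MM mice was left out, A630019I02Rik without sedentary mouse 2127-3 (adjusted p = 0.000847, limma) and the small nucleolar RNA Snora81 without exercised mouse 2161-9 (adjusted p = 0.00818, limma).

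The intervals say what size of interaction these 16 mice could leave unseen. Half-widths of the 95% interval had a median of 0.40 on the log2 scale, a 1.32-fold ratio of folds, and they narrowed with level, from 0.54 in 4153 genes of mean 1 to 5 FPKM to 0.27 in 576 genes of 100 FPKM or more. For 9349 genes (88.9%) the whole interval lay within 1 of 0 on the log2 scale, and for 4975 (47.3%) within 0.5. An interaction beyond 1 in either direction was measured in 85 genes (0.808%).

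The interaction was below 0 in more genes than above it. It was below 0 in 6555 genes (62.3%), with a median of -0.04, and this majority depended on scaling, since 49.0% were below 0 after median-ratio scaling between mice and 46.5% after quantile normalization. In the 160 genes at unadjusted p under 0.05 with a value below 0, 124 were measured higher after exercise in MM and lower in VV, 26 were higher in both and 10 lower in both. In the 35 above 0, 31 were measured lower after exercise in MM and higher in VV. Genes in these groups were chosen for a large difference between the exercise effects, so that choice favours opposite signs. Opposite signs were measured in 3049 of all 10519 tested genes. The counts of 124 and 31 are therefore no test of a reversed response in VV. No gene had all exercised MM mice above all sedentary MM mice and all exercised VV mice below all sedentary VV mice, and none had the reverse.

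**Figure D1:**
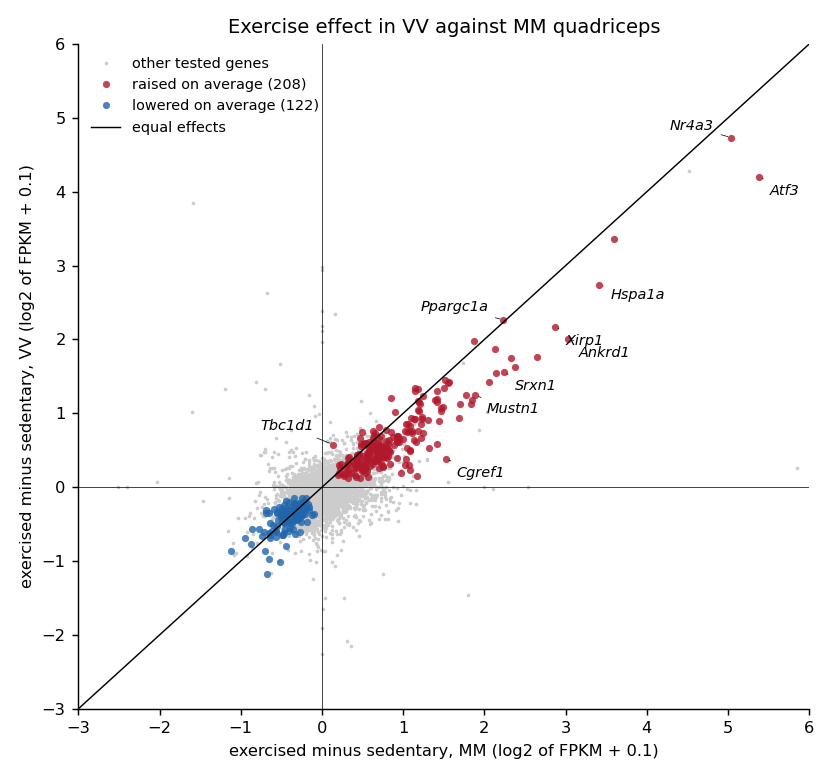
Exercise effect in VV mice (vertical axis) against exercise effect in MM (WT) mice (horizontal axis), both as log2 differences of FPKM + 0.1 between exercised and sedentary mice, for the tested genes. Red points are the 208 genes raised and blue points the 122 genes lowered by exercise on average over the genotypes, the diagonal marks equal effects, and 3 tested genes lie outside the plotted range. Most red points, 177 of 208, lie under the diagonal.

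The genes with the smallest p values were mostly of low level. Ntn4 (chr10:93641049-93745972, GRCm38), a secreted laminin-related netrin of basement membranes, was at 2.92, 2.72, 2.22 and 2.83 FPKM in sedentary MM, 4.71, 4.12, 4.32 and 4.02 FPKM in exercised MM, 4.13, 5.90, 3.5 and 3.38 FPKM in sedentary VV and 4.27, 2.46, 3.84 and 2.80 FPKM in exercised VV. All exercised MM mice were above all sedentary MM mice, while the VV groups overlapped and sedentary VV mice were all above sedentary MM mice. The interaction was -0.997 (SE 0.26, unadjusted p = 0.00124, adjusted p over 0.99 by limma), a ratio of folds of 0.501 (95% interval 0.344 to 0.730).

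Sigirr (chr7:141091175-141100597), an inhibitory receptor of the interleukin-1 family, was at 1.35, 1.24, 1.76 and 1.12 FPKM in sedentary MM, 1.51, 1.80, 1.65 and 2.53 FPKM in exercised MM, 1.70, 1.82, 2.27 and 2.10 FPKM in sedentary VV and 1.48, 1.48, 1.04 and 1.17 FPKM in exercised VV. Here the VV groups did not overlap, the exercised mice being lower, and the exercised VV mice also lay below every exercised MM mouse. The interaction was -0.998 (SE 0.26), and within the shared numbers it was -0.62.

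Anxa8, a calcium-dependent membrane-binding annexin, was at 1.28, 1.77, 1.72 and 1.19 FPKM in sedentary MM and 3.08, 4.06, 2.66 and 3.25 FPKM in exercised MM, against 1.94, 2.64, 2.49 and 1.28 FPKM in sedentary VV and 2.03, 2.08, 1.34 and 2.56 FPKM in exercised VV. The MM groups were apart and the VV groups overlapped (interaction -1.13, SE 0.32). Ctsk, the lysosomal collagenase cathepsin K, was at 5.54, 4.53, 3.58 and 5.15 FPKM in sedentary MM, 6.53, 7.29, 4.96 and 8.18 FPKM in exercised MM, 5.55, 4.93, 6.64 and 3.98 FPKM in sedentary VV and 5.22, 3.98, 3.65 and 3.97 FPKM in exercised VV. All its groups overlapped with their own controls, and its interaction was -0.82 (SE 0.25).

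A630019I02Rik (chr13:93094833-93098968), a long non-coding RNA, had 1 of the largest values, -2.12 (SE 0.65), and it rested on 3 mice. It was at 23.1, 10.4, 17.2 and 97.1 FPKM in sedentary MM, 105, 103, 115 and 112 FPKM in exercised MM, 129, 118, 98.5 and 103 FPKM in sedentary VV and 95.9, 90.9, 117 and 143 FPKM in exercised VV. The first 3 sedentary MM mice were low and the other 13 mice, the fourth sedentary MM mouse included, were all above 90 FPKM. Asns, asparagine synthetase, had -1.91 (SE 0.63), with 1.12, 1.27, 0.891 and 0.578 FPKM in sedentary MM, 1.56, 2.24, 1.51 and 1.32 FPKM in exercised MM, 2.32, 1.13, 0.815 and 5.51 FPKM in sedentary VV and 0.449, 0.671, 0.922 and 1.27 FPKM in exercised VV. The sedentary VV mouse 2296-5 was the highest of all for Asns, and without any 1 mouse its interaction was -2.28 to -1.41.

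Others of the 12 smallest p below 0 were AI413582 (-1.12), Cgref1 (-1.14), 8430426J06Rik (-0.99), Slc35b3 (-0.78), Cenpv (-0.51) and Arf3 (-0.51). Rnu6, a small nuclear RNA, is in this group by its p, but it was listed at 0 in 5 of the 16 mice, among them 3 exercised VV mice, and no fold is given. AI413582, the gene with the smallest p of all, had only -0.15 within the shared numbers. Arf3, a small GTPase of the Golgi, was at 4.37 to 5.55 FPKM in exercised VV against 5.31 to 7.42 FPKM in sedentary VV, and 5.78 to 7.07 FPKM in exercised MM against 5.91 to 6.29 FPKM in sedentary MM. Its exercised VV mice were all below every exercised MM mouse.

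Of the values above 0, Tbc1d1 (chr5:64156305-64351486), a Rab GTPase-activating protein that controls glucose transporter traffic in muscle, was the only raised gene at unadjusted p under 0.05. It was at 14.2, 16.3, 14.8 and 14 FPKM in sedentary MM, 14.6, 20.1, 15.6 and 15.1 FPKM in exercised MM, 11.8, 10.7, 13.4 and 14.2 FPKM in sedentary VV and 18.6, 19.7, 18.4 and 17.8 FPKM in exercised VV. The VV groups were apart and the MM groups overlapped. The run changed it by 0.58 in VV (adjusted p = 0.0226, limma), its value in MM was 0.13 (adjusted p = 0.703), and the interaction was 0.44 (SE 0.15, unadjusted p = 0.00896), with 0.69 within the shared numbers.

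Lphn2, the adhesion receptor latrophilin 2, was at 3.99, 3.8, 4.64 and 3.8 FPKM in sedentary MM, 3.62, 2.22, 2.62 and 3.07 FPKM in exercised MM, 2.17, 2.58, 2.62 and 1.99 FPKM in sedentary VV and 2.26, 2.66, 3.24 and 2.88 FPKM in exercised VV. The sedentary MM mice were above all others, and the other 3 groups overlapped (interaction 0.72, SE 0.22). Tsacc had 1.2 (SE 0.36), with sedentary MM mice at 2.47 to 3.07 FPKM, exercised MM mice at 1.16 to 1.94 FPKM and overlapping VV groups. Dynlt1b (1.28) and Dynlt1a (1.26), dynein light chains with near-identical sequence whose reads the counting could split between copies, are uncertain, and Snora28 was above 0 in only 4 mice. Zim1 (2.10), Sat2 (0.79), 1700001K19Rik (0.85), Acd (0.69), 2310030G06Rik (0.65) and I830012O16Rik (0.55) completed the 12.

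**Figure D2:**
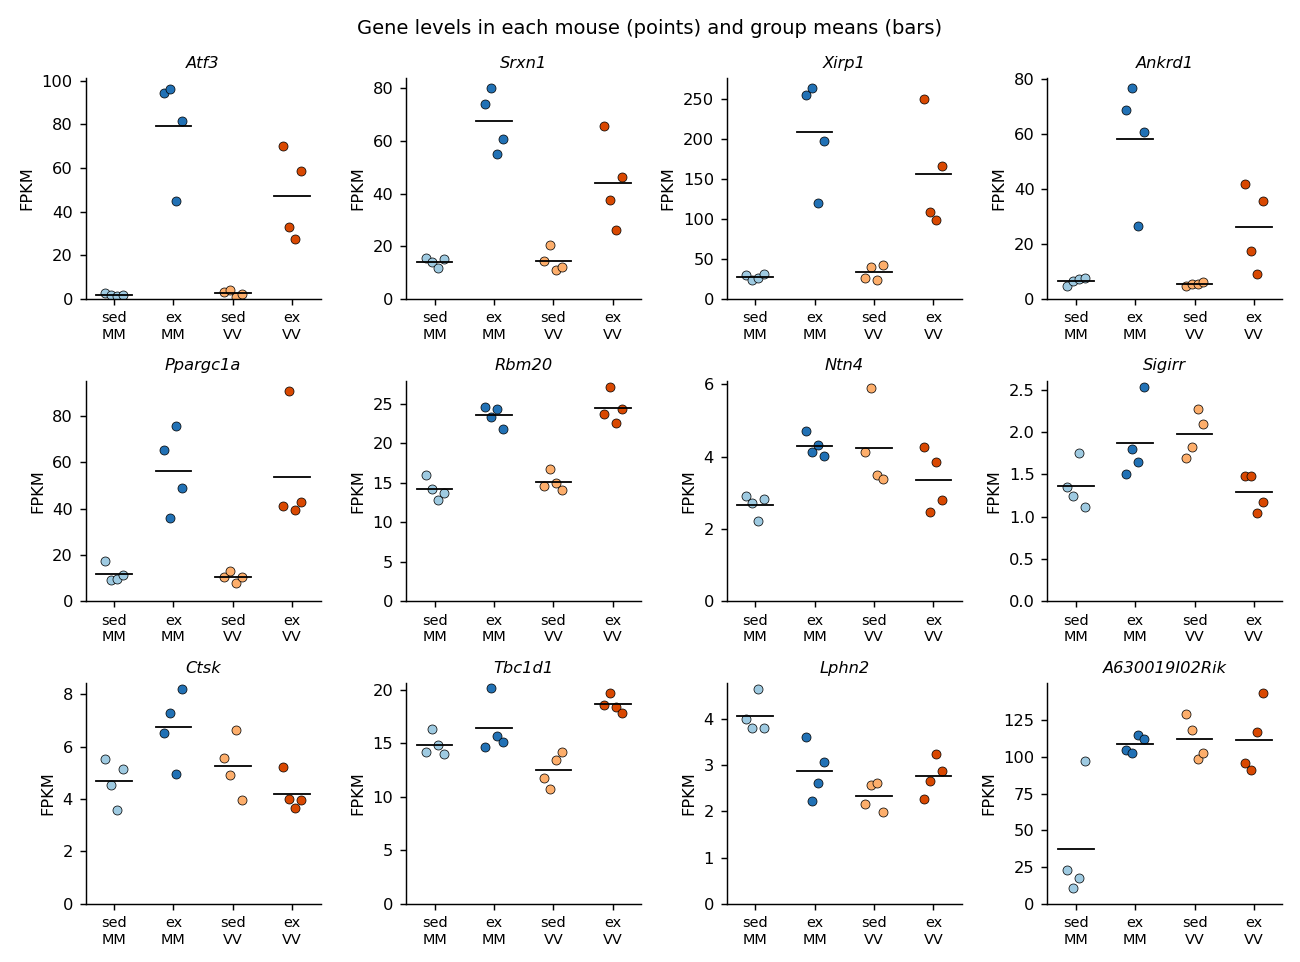
Expression of 12 genes in each of the 16 mice (vertical axes, FPKM; each point 1 mouse, bars the group means) in sedentary and exercised MM (WT) and VV mice. Atf3, Srxn1, Xirp1 and Ankrd1 rose with exercise in MM and, apart from Ankrd1, in VV by their own tests, while for A630019I02Rik the 3 low points are sedentary MM mice between 10.4 and 23.1 FPKM.

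The interaction can also be read over the genes that exercise moved. These were taken from the average exercise effect over both genotypes, which in this balanced design is a contrast independent of the interaction under equal variances, though it comes from the same mice. It called 330 genes, 208 higher (1.98% of those tested) and 122 lower (1.16%) after exercise, by limma at an adjusted p under 0.05. In the same fit the exercise effect was called in 129 genes within MM mice (1.23%) and in 29 genes within VV mice (0.276%). A gene called in both genotypes is in both counts, and this difference in counts is not itself a test between genotypes.

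Genes raised by exercise rose less in VV mice by value in 177 of 208 cases (85.1%), against 62.3% of all tested genes with an interaction below 0 and 70.3% of the 3098 genes with an average effect above 0. Their median interaction was -0.22, a ratio of folds of 0.859, against 0.973 for all genes. The median exercise effect was 0.76 in MM and 0.55 in VV, and every raised gene had an effect above 0 in both genotypes. None was called for the interaction, and 13 had an unadjusted p under 0.05, 12 below 0 and Tbc1d1 above.

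Both ends of the response contributed to this median. In sedentary mice the raised genes were higher in VV than in MM in 141 cases (67.8%, against 43.0% of all genes). Their median difference was 0.07, against -0.03 over all genes. In exercised mice they were lower in VV in 155 cases (74.5%, against 68.7% of all genes). The median difference there was -0.16, against -0.08 over all genes. Of the raised genes, 97 (46.6%, against 20.7% of all genes) showed both. All exercised VV mice lay below all exercised MM mice in 8 raised genes (3.85%, against 2.71% of all genes), among them Hif1a, the hypoxia-inducible factor, Tlr4, a receptor of innate immunity, and Slc16a1, a lactate transporter. They lay above in 1, Zbtb16, a zinc finger regulator (background 0.684%). Of the genes lowered by exercise, 8 (6.56%) had all exercised VV mice below all exercised MM mice, so the pattern was not particular to raised genes. The 4 exercised mice were all above the 4 sedentary mice in 171 of the 208 in MM, in 110 in VV and in 88 in both. Over all 10519 tested genes this held in 357 in MM and in 147 in VV. The raised genes were chosen for higher levels after exercise, so that choice favours such separation.

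The mean log2 level over the 208 raised genes shows which mice carried the difference. It was 3.18, 3.11, 3.00 and 3.09 in sedentary MM, 4.16, 4.05, 4.00 and 4.01 in exercised MM, 3.15, 3.25, 3.09 and 3.25 in sedentary VV and 4.03, 4.03, 3.64 and 3.87 in exercised VV. Exercised mice were apart from sedentary mice in both genotypes, but the exercised genotypes overlapped, since 2161-5 and 2161-7 were within the MM range and 2296-2 was the lowest. That mouse was also the lowest in the mean over all tested genes (2.99 against 3.01 to 3.17 in the others), and its part in the result was measured by leaving it out: with the genes chosen again, 72.1% of raised genes were below 0, with a median of -0.12. Without 2161-7 the share was 90.9%. Within the shared numbers, 132 of the 208 were below 0 (63.5%), near the 60.3% of all genes there. That value leaves out 2296-2 and 2296-3 and has 2074-1 as its only sedentary MM mouse. After median-ratio scaling 223 of 300 raised genes were below 0 (74.3%, against 49.0% of all genes).

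**Figure D3:**
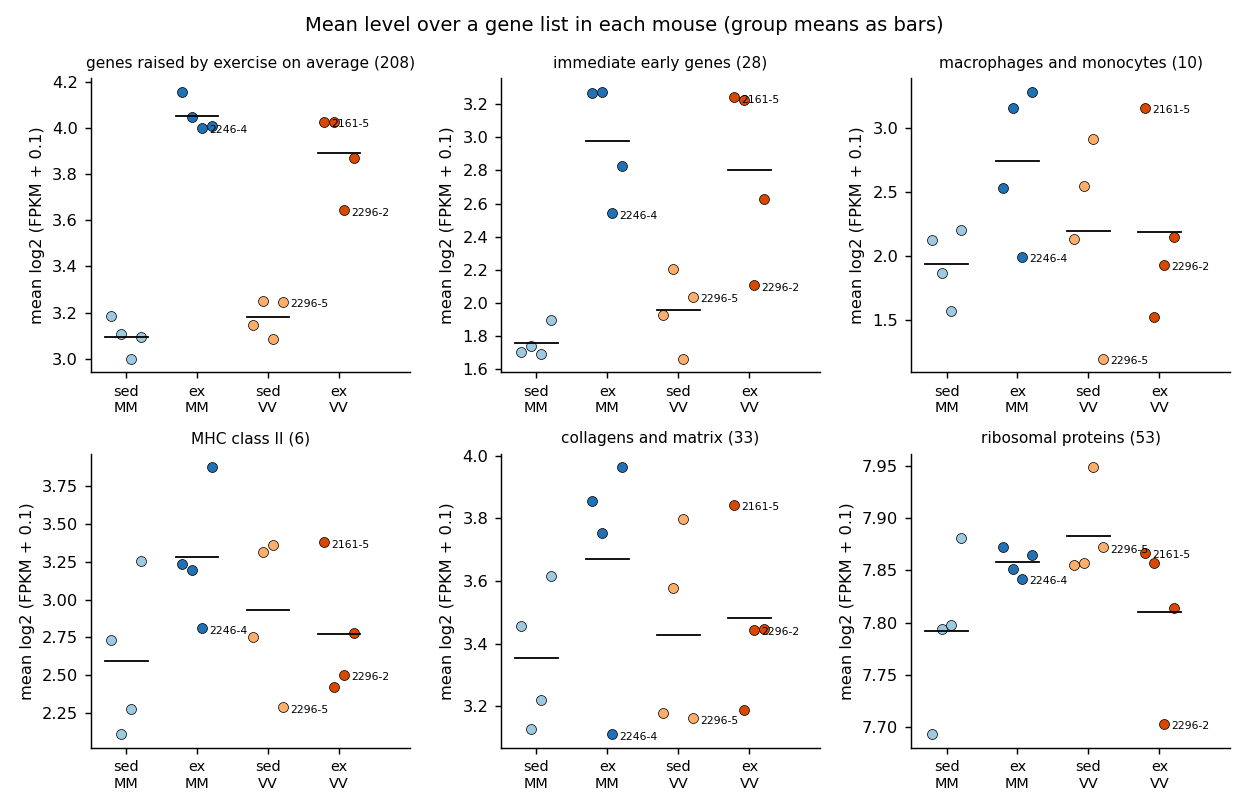
Mean log2(FPKM + 0.1) over 6 gene lists in each of the 16 mice (vertical axes; each point 1 mouse), by group, with mice 2296-2, 2161-5, 2246-4 and 2296-5 labelled. For raised genes the exercised VV mouse 2296-2 lies lowest of the exercised mice, at 3.64, and for macrophage markers the exercised groups overlap, 1.99 to 3.28 in MM and 1.52 to 3.15 in VV.

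The share hardly depended on how strongly a gene responded. It was 45 of 55 for average effects up to 0.5, 88 of 102 between 0.5 and 1, 36 of 42 between 1 and 2, and 8 of 9 above 2, with medians of -0.14, -0.26, -0.24 and -0.68. Of the genes lowered by exercise, the fall was smaller in VV in 62 of 122 (50.8%), against 41.0% of the 7421 genes with an average effect below 0, and their median effects were -0.40 in MM and -0.37 in VV. The share was 63.2% after median-ratio scaling and 63.9% after quantile normalization, 38.8% with array weights and 32.2% without sedentary VV mouse 2296-5. Within the shared numbers it was 41.8%, near the 39.7% of all genes with an interaction above 0 there.

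**Figure D4:**
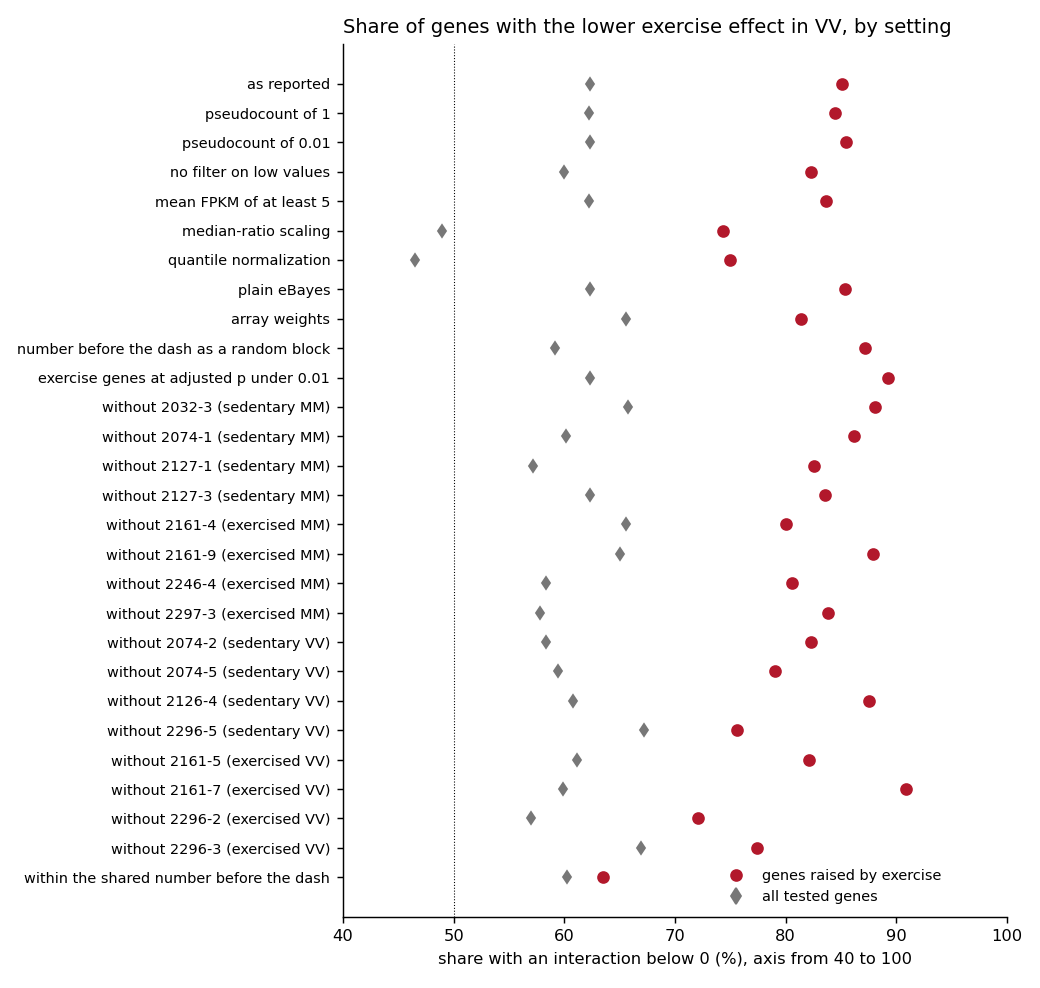
Share of genes with an interaction below 0 (horizontal axis, percent) among the genes raised by exercise and among all tested genes, under each processing setting and with each mouse left out (rows). For raised genes, chosen anew in each setting, the share is 85.1% as reported and between 72.1% and 90.9% with 1 mouse left out, and it is 63.5% for the reported genes within shared numbers.

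Of the single genes that running raised most, the transcription factors came first. Atf3 (chr1:191170296-191183333), a stress-induced factor of the ATF/CREB family, was at 2.57, 1.73, 1.12 and 1.73 FPKM in sedentary MM, 94.5, 96.2, 44.9 and 81.3 FPKM in exercised MM, 3.03, 4.15, 0.955 and 2.22 FPKM in sedentary VV and 70.0, 32.7, 27.6 and 58.4 FPKM in exercised VV. Every exercised mouse was far above every sedentary mouse, and 2 exercised VV mice lay below all exercised MM mice. Atf3 rose by 5.38 on the log2 scale in MM mice (adjusted p = 1.00e-05, limma) and by 4.20 in VV mice (adjusted p = 0.000301), and the interaction was -1.18 (SE 0.57, 95% interval -2.40 to 0.04), a ratio of folds of 0.441. Within the shared numbers it was -1.98.

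Nr4a3, an orphan nuclear receptor that responds to contraction, was at 4.58, 1.07, 0.651 and 0.737 FPKM in sedentary MM, 75.8, 24.8, 59.1 and 35.8 FPKM in exercised MM, 1.47, 3.20, 0.400 and 1.42 FPKM in sedentary VV and 32.2, 87.3, 24.4 and 28.3 FPKM in exercised VV. Its exercised groups covered the same range, with VV mouse 2161-7 the highest of all. The interaction was -0.31 with an interval of -2.26 to 1.65, too wide to show a difference of either sign, and it was 0.10 without sedentary VV mouse 2074-5.

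Ppargc1a was at 17.4, 9.19, 9.58 and 11.3 FPKM in sedentary MM, 65.2, 35.9, 75.8 and 48.8 FPKM in exercised MM, 10.4, 13.3, 8.03 and 10.4 FPKM in sedentary VV and 41.2, 91.0, 39.3 and 43.1 FPKM in exercised VV. All exercised mice were above all sedentary mice, the exercised groups overlapped, and 2161-7 was again the highest. Ppargc1a rose by 2.23 in MM mice (adjusted p = 0.000661, limma) and by 2.27 in VV mice (adjusted p = 0.00206), with an interaction of 0.03 (95% interval -0.82 to 0.89), and the value without any 1 mouse was -0.25 to 0.19. Rbm20, a splicing regulator of titin, had a tight value: -0.04 with an interval of -0.30 to 0.22, at 12.8 to 16.8 FPKM in sedentary and 21.8 to 27.2 FPKM in exercised mice of both genotypes. Arhgap26 (-0.13), Slc22a4 (-0.04), Midn (-0.22), Alpk2 (-0.19) and Hspb7 (-0.31) were also among the 12 smallest p of the average effect. The sign of Rbm20 and Slc22a4 turned under both scaling alternatives.

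Genes of the strained sarcomere had lower values in several exercised VV mice. Xirp1, an actin-binding repair protein of the myotendinous junction and damaged sarcomeres, was at 29.7, 23.6, 25.8 and 30.7 FPKM in sedentary MM, 255, 264, 119 and 197 FPKM in exercised MM, 26.5, 39.2, 23.9 and 42.5 FPKM in sedentary VV and 249.7, 108, 98.7 and 166 FPKM in exercised VV. The exercised groups overlapped, with VV mouse 2161-5 in the upper MM range and 2161-7 and 2296-2 below all MM mice. The interaction was -0.69 (SE 0.42, interval -1.57 to 0.19).

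Ankrd1, a titin-associated ankyrin repeat protein, was at 4.78, 6.64, 7.26 and 7.68 FPKM in sedentary MM, 68.6, 76.6, 26.3 and 60.6 FPKM in exercised MM, 4.83, 5.47, 5.38 and 6.01 FPKM in sedentary VV and 41.9, 17.5, 9.06 and 35.7 FPKM in exercised VV. The same 2 VV mice were below all exercised MM mice, and 2296-2 was only a little above the sedentary range. Ankrd1 rose by 3.03 in MM (adjusted p = 0.000948, limma), while its effect of 2.01 in VV had an adjusted p of 0.055, and the interaction was -1.02 (SE 0.57), or -0.60 without 2296-2.

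Mustn1, a small nuclear protein of regenerating muscle, was the one gene among the 12 smallest p of the average effect with an unadjusted interaction p under 0.05. It was at 20.9, 25.4, 26.5 and 29.0 FPKM in sedentary MM, 118, 115, 67.4 and 85.0 FPKM in exercised MM, 24.5, 25.3, 27.5 and 30.8 FPKM in sedentary VV and 98.8, 53.4, 49.7 and 63.6 FPKM in exercised VV. The sedentary groups overlapped, and 3 of 4 exercised VV mice were below all exercised MM mice. Its interaction was -0.65 (SE 0.28, unadjusted p = 0.0373), the same within the shared numbers. Tnfrsf12a, the receptor of the cytokine TWEAK, had -0.57 (SE 0.39), with 49.1 to 71.2 FPKM in exercised MM and 40.2 to 57.9 FPKM in exercised VV. Its sedentary levels were 9.88 to 15.3 FPKM in MM and 8.26 to 27.9 FPKM in VV. VV minus MM was 0.33 in sedentary and -0.24 in exercised mice, and the interaction without any 1 mouse was -0.85 to -0.26.

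Over the 31 tested genes of sarcomere and membrane stress, 23 were below 0 with a median of -0.12, and 11 of the 31 belonged to the raised genes. After median-ratio scaling and quantile normalization 16 and 18 of the 31 were below 0, against 49.0% and 46.5% of all genes. The median was -0.04 without exercised MM mouse 2297-3. Enah (-0.76), an actin regulator, Csrp3 (-0.63), a Z-disc mechanosensor, and Ankrd2 (-0.55) followed Ankrd1, and Actc1, the cardiac actin, was the highest (0.89). The 27 heat shock and chaperone genes had 22 below 0 and a median of -0.10, which was -0.03 without sedentary VV mouse 2074-5 and -0.22 without sedentary MM mouse 2032-3. Under the same scalings 18 and 19 of the 27 were below 0. Hspa1a, the inducible HSP70, rose by 3.42 in MM mice (adjusted p = 0.000939, limma) and by 2.74 in VV mice (adjusted p = 0.0126). It was at 6.74 to 18.3 FPKM in exercised MM and 5.58 to 13.9 FPKM in exercised VV. Its sedentary levels were 0.492 to 1.89 FPKM in MM and 0.640 to 2.86 FPKM in VV. The interaction was -0.68 (SE 0.65), with VV minus MM at 0.44 in sedentary and -0.24 in exercised mice. The constitutive chaperone Hsp90ab1 was at 0.02.

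The antioxidant genes had no common direction. Of 30 tested targets of NRF2 and other antioxidant genes, 19 were below 0 with a median of -0.03, a sign that turned under both scaling alternatives. Srxn1 (chr2:152105524-152111376), which reduces overoxidized peroxiredoxins, was at 15.7, 13.9, 11.9 and 15.2 FPKM in sedentary MM, 73.9, 80.3, 55.1 and 60.8 FPKM in exercised MM, 14.5, 20.5, 10.8 and 12.3 FPKM in sedentary VV and 65.8, 37.6, 26.3 and 46.1 FPKM in exercised VV. All of its exercised VV mice but 2161-5 were below all exercised MM mice, and sedentary groups overlapped. It rose by 2.24 in MM mice (adjusted p = 0.000168, limma) and by 1.56 in VV mice (adjusted p = 0.00735), with an interaction of -0.68 (SE 0.34, interval -1.40 to 0.03). Hmox1, the heme oxygenase, had -0.14 and the metallothionein Mt2 0.11.

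The Srxn1 promoter is shown because it holds more than 1 copy of the AP-1 site. The stretch of 120 bases, chr2:152105374-152105493 (GRCm38.p6, plus strand, RefSeq), covers 150 to 31 bases before the start site, with 2 matches to the AP-1 site TGANTCA in capitals, which Fos and Jun dimers bind.
Srxn1: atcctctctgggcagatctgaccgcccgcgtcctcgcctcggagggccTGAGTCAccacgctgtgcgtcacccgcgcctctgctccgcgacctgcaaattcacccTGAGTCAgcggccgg
Over the promoters from 250 bases before to 50 bases after the start, the RefSeq table held 8172 of the tested genes and 156 of the raised genes. TGANTCA, on either strand, was in 5.86% of all and 9.62% of raised promoters, and 12 of those 15 raised genes had an interaction below 0, as did 116 of the 141 raised genes without it.

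The full cyclic AMP response element TGACGTCA, bound by CREB and ATF proteins, was in 3.77% of all and 7.05% of raised promoters, 11 genes. Of these, 9 were below 0 with a median of -0.24, against a median of -0.21 in raised promoters without it, so the match did not separate the raised genes by interaction. The 3 with the lowest and the 2 with the highest interaction are printed with 10 flanking bases on each side and the element in capitals.
Btg2: ttcccaataaTGACGTCAgtgagcgatg
Rcan1: actaaggtgtTGACGTCAcctctttcca
Plk2: gcgctcgccgTGACGTCAcgaggccccg
Tmem251: gctgacagccTGACGTCAtgagaggccg
Gm11974: ccaggggcgcTGACGTCAgtgtcttgga
These sites are at chr1:134079304-134079331 (minus strand), chr16:92400236-92400263 (minus), chr13:110394972-110394999 (plus), chr12:102743660-102743687 (plus) and chr11:6528831-6528858 (minus) of GRCm38.p6. Btg2, an antiproliferative early gene, rose by 1.83 in MM on the log2 scale and had an effect of 1.13 in VV (interaction -0.70, SE 0.49). Rcan1, an inhibitor of calcineurin, had 1.44 and 0.90 (-0.54, SE 0.46), and Plk2, a polo-like kinase, 0.92 and 0.39 (-0.53, SE 0.27). Tmem251 (0.03) and Gm11974 (0.15) had slightly larger effects in VV. The matches are descriptions of the letters in these windows.

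The immediate early genes leaned below 0 as a list. Of 28 tested, 23 (82.1%) were below 0 with a median of -0.27, against 62.3% and -0.04 for all genes. The raised genes, to which 13 of the 28 belong, were close to the list, at 85.1% and -0.22. The median exercise effect of the list was 0.99 in MM and 0.58 in VV. After Atf3 came Egr1 (-1.17), Fos (-1.01), Arc (-0.84), Cyr61 (-0.75) and Btg2, while Jun (0.12), Ctgf (0.20) and Ier3 (0.25) were above 0. None was at unadjusted p under 0.05. Egr1, a zinc finger factor, was at 1.08, 1.54, 1.38 and 7.03 FPKM in sedentary MM, 10.8, 9.12, 4.94 and 8.62 FPKM in exercised MM, 2.80, 7.29, 1.2 and 3.22 FPKM in sedentary VV and 5.84, 16.5, 1.39 and 5.26 FPKM in exercised VV, with overlapping groups in both genotypes. The mean over the list was 3.24 and 3.23 in VV mice 2161-5 and 2161-7 and 2.11 and 2.63 in 2296-2 and 2296-3, against 2.54 to 3.27 in exercised MM. The list median was -0.07 without 2296-2 and -0.48 without exercised MM mouse 2246-4, the lowest of its group.

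Genes of immune cells had the lowest medians among lists with at least 4 tested genes. Of 10 tested markers of macrophages and monocytes, 10 were below 0 with a median of -0.78. The median effect was 0.81 in MM and 0.01 in VV, and none of the 10 was called in either genotype or in the interaction. Mrc1, the mannose receptor of resident macrophages, had -1.03, Cd163, a hemoglobin scavenger receptor, -0.99, Csf1r, the receptor that keeps macrophages alive, -0.99, and C1qb, a complement subunit, -0.54. As these are bulk samples, fewer cells of a type and less RNA per cell cannot be told apart.

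Tyrobp, a signaling adaptor of myeloid cells, was at 3.37, 2.91, 2.38 and 3.73 FPKM in sedentary MM, 7.25, 6.61, 3.43 and 10.3 FPKM in exercised MM, 3.30, 4.91, 5.26 and 4.09 FPKM in sedentary VV and 7.93, 2.2, 2.97 and 6.12 FPKM in exercised VV. Exercised VV mice 2161-5 and 2296-3 were in the exercised MM range and the other 2 below every exercised MM mouse (interaction -1.08, SE 0.51). The mean over the macrophage markers was 2.12, 1.87, 1.57 and 2.2 in sedentary MM, 2.53, 3.15, 1.99 and 3.28 in exercised MM, 2.13, 2.54, 2.91 and 1.2 in sedentary VV and 3.15, 1.52, 1.93 and 2.15 in exercised VV. All 4 groups overlapped, and within each VV group the spread was larger than the difference between genotypes. The list median was -1.11 without sedentary VV mouse 2296-5 and -0.60 without exercised MM mouse 2297-3.

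The 6 tested genes of MHC class II, which presents antigen, were all below 0, with a median of -0.84 and median effects of 0.77 in MM and -0.14 in VV. H2-Eb1 was at 8.12, 5.28, 4.09 and 11.3 FPKM in sedentary MM, 10.2, 11.8, 8.13 and 18.8 FPKM in exercised MM, 7.99, 12.0, 11.9 and 5.16 FPKM in sedentary VV and 13.1, 6.48, 6.04 and 7.37 FPKM in exercised VV. All groups overlapped with their own controls, and the interaction was -0.95 (SE 0.50). Of 48 tested inflammation genes, 43 were below 0 (median -0.37, with 0.54 in MM and -0.02 in VV), among them Tyrobp, Csf1r and the chemokine Ccl6 (-0.92). The lowest value, -1.20 for S100a9, a calcium-binding protein of neutrophils, came from levels of 0 to 2.13 FPKM, was -0.41 without sedentary MM mouse 2127-1, which is listed at 0, and was 0.22 within the shared numbers. F3, tissue factor, was the inflammation gene with the smallest p (-0.84, unadjusted p = 0.016) and belonged to the raised genes.

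The 24 interferon-responsive genes had effects near 0 in MM (median -0.02) and below 0 in VV (-0.31), with 21 below 0 and a median interaction of -0.21. That median was -0.08 without exercised MM mouse 2297-3 and -0.33 without sedentary MM mouse 2127-3. Usp18, which removes ISG15 from proteins, was at 1.53, 1.39, 1.06 and 1.42 FPKM in sedentary MM, 1.45, 1.26, 1.21 and 1.65 FPKM in exercised MM, 2.01, 1.32, 1.05 and 1.16 FPKM in sedentary VV and 1.02, 0.414, 0.974 and 0.543 FPKM in exercised VV. Its exercised VV mice were below all other mice (interaction -0.90, SE 0.35, unadjusted p = 0.0211). The highest value of the list was that of Psmb9 (0.54). I830012O16Rik, which RefSeq names Ifit3b, of the interferon-induced IFIT family, is outside the list and went the other way. Its interaction was 0.55 (unadjusted p = 0.0188, limma).

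Matrix genes and ribosomal proteins also had most values below 0. Of 33 collagens and matrix genes, 31 were below 0 (median -0.29), among them Lum (-0.54) and Dcn (-0.53), small proteoglycans of collagen fibrils. The median was -0.16 without sedentary VV mouse 2126-4 and -0.45 without exercised MM mouse 2246-4. The 12 markers of fibro-adipogenic cells and fibroblasts were all below 0 (median -0.46, and -0.29 without 2126-4), and their summed FPKM overlapped between groups, 893 to 1328 in exercised MM and 834 to 1313 in exercised VV. All 53 tested ribosomal protein genes were below 0, with a median of -0.14, and 51 and 47 of them under the scaling alternatives, with medians of -0.10 and -0.09. Rps12 was at 267, 273, 294 and 318 FPKM in sedentary MM, 338, 322, 287 and 323 FPKM in exercised MM, 323, 321, 359.7 and 335 FPKM in sedentary VV and 340.0, 307, 294 and 302 FPKM in exercised VV. Its sedentary VV mice were all above the sedentary MM mice and its exercised groups overlapped (interaction -0.25, SE 0.10).

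**Figure D5:**
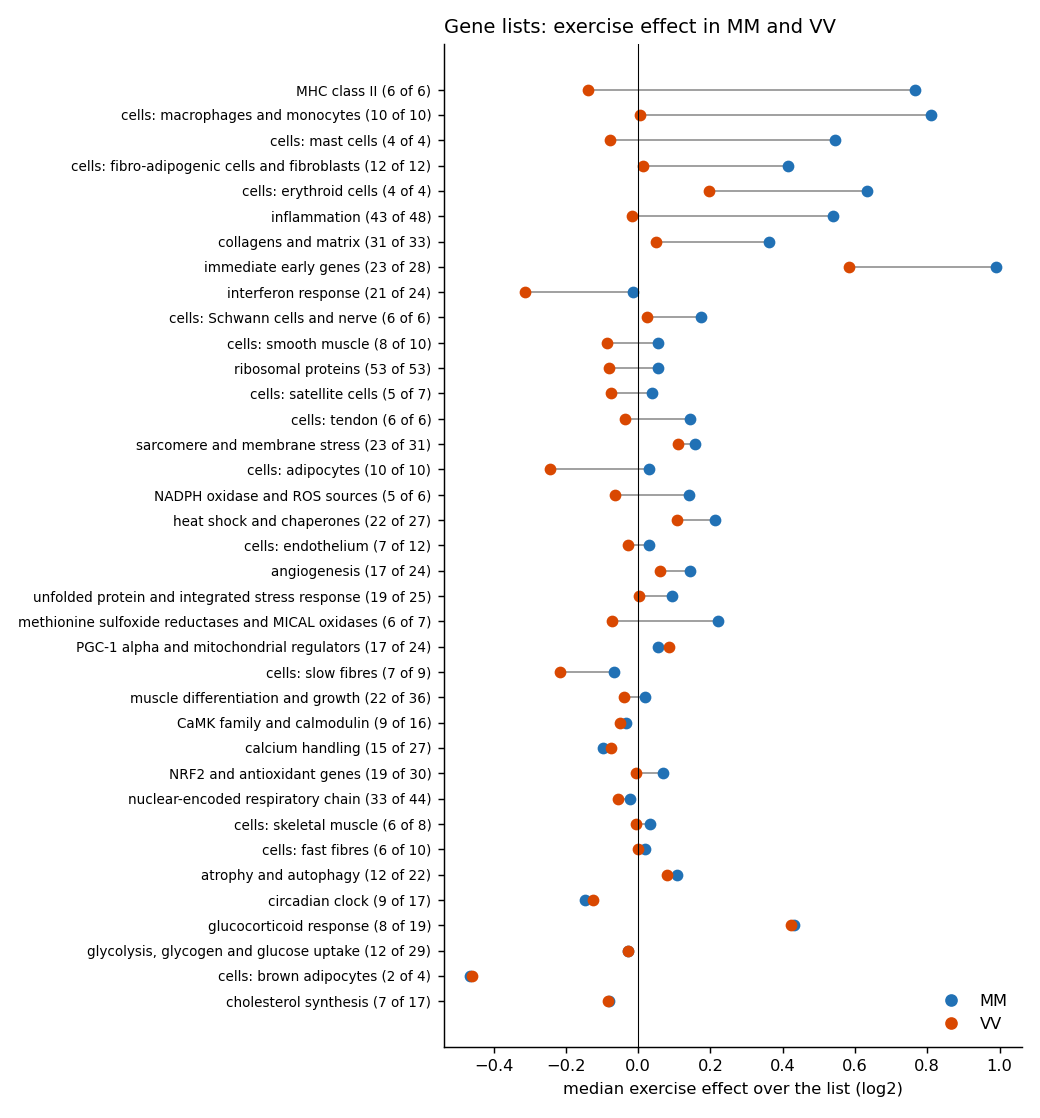
Median exercise effect (horizontal axis, log2 difference between exercised and sedentary mice) of each gene list in MM (WT) and VV mice, with the number of tested genes whose interaction was below 0 beside each list. Macrophage markers, with 0.81 in MM and 0.01 in VV, MHC class II, with 0.77 and -0.14, and inflammation, with 0.54 and -0.02, show wide gaps. The fast fibre, respiratory chain and glycolysis lists lie close to 0 in both genotypes.

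In lists of calcium handling, metabolism, hormone response and fibre markers the medians were near 0. The lists of sarcomere and membrane stress (-0.12) and heat shock (-0.10) lay lower. Calcium handling genes, such as the ryanodine receptor Ryr1 (0.13) and the calcium pump Atp2a1 (0.13), had 15 of 27 below 0 (median -0.03), and the CaMK family with calmodulin had 9 of 16 below 0 (median -0.03). Nuclear-encoded respiratory chain genes had 33 of 44 below 0 with a median of -0.02, and the signs of these 3 medians turned under both scaling alternatives. Genes of PGC-1α and mitochondrial regulation had 17 of 24 below 0 (median -0.05), glycolysis and glucose uptake 12 of 29 (0.01), glucocorticoid response 8 of 19 (0.00) and cholesterol synthesis 7 of 17 (0.04). The 8 skeletal muscle markers had a median of -0.01, as did the 10 fast fibre markers. The 9 slow fibre markers had a median of -0.04, which ranged from -0.22 to 0.14 with 1 mouse left out. Their mean log2 level was 5.86 in exercised VV mouse 2296-2 and 6.63 to 6.78 in the other exercised mice.

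The study's own candidate list, chosen on these samples and therefore no independent evidence of direction, had 85 of 90 genes tested and 82 of them below 0, with a median of -0.32. None passed the interaction test.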

How the data were processed

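Whole quadriceps muscle of 16 mice, 4 in each combination of genotype and exercise, was profiled by stranded poly(A) RNA sequencing with paired-end reads on a NovaSeq instrument. The authors deposited 1 table of FPKM per gene and mouse, and the submitters' processing notes name FastQC, TopHat, StringTie, SAMtools and Cuffdiff 2.2.1 with the mm10 build. The deposited FPKM are scaled for library size and transcript length, keep no read depth, and do not allow a count test. The sources do not give whether the counting used strand, and 271 tested entries join several genes, so their values are uncertain for each gene.

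Groups followed the labels of the samples. Each mouse is 1 sample, and 0 sample columns were left unused. Values were taken as log2(FPKM + 0.1), which understates changes of low genes, for entries with a mean of at least 1 FPKM. The 4 group means were fitted by a linear model in limma 3.58.1 (R 4.3.3) with trended and robust eBayes, Benjamini-Hochberg adjustment at 0.05 and two-sided tests. The interaction, the average exercise effect and its parts were contrasts of that fit. The steps were tested on simulated data. Figures were drawn with matplotlib 3.10.9 in Python 3.11.15.

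Named genes were any that passed the interaction, the 12 smallest p in each direction, the 12 smallest p of the average exercise effect, up to 2 members with the largest absolute interaction in each function list, the CaMKII isoforms, Ppargc1a, Atf3, Nr4a3 and the first 10 genes of the study's candidate list. Further members of lists were named after their values were seen. The members, the gene lists and the tests were chosen with earlier results of these data known. Alternatives were another pseudocount (1 or 0.01), no filter or a mean of at least 5 FPKM, median-ratio scaling, quantile normalization, plain eBayes, array weights, the number before the dash of the mouse name as a fixed or random block, untransformed FPKM, exercise genes at an adjusted p under 0.01, and each mouse left out. The fixed block leaves the interaction to the shared numbers, and its use on the reported exercise genes was added after the data were seen.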

Additional observations from a re-analysis of the deposited data

Results flagged for a closer look

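In 30 genes and 9 list means, 156 groups of 4 mice were looked at, and in 8 of them 1 mouse stood apart from the other 3, where about 1 in 20 groups would by chance. Sedentary VV mouse 2296-5 had 147 FPKM of Hspb7, a small heat shock protein of muscle, against 112 to 117 in its group. Sedentary MM mouse 2032-3 had 4.58 FPKM of Nr4a3 against 0.651 to 1.07, and 6.29 FPKM of Arf3 against 5.91 to 5.93. Exercised VV mouse 2161-7 had 87.3 FPKM of Nr4a3 against 24.4 to 32.2, and 91.0 FPKM of Ppargc1a against 39.3 to 43.1. Sedentary MM mouse 2127-3 had 97.1 FPKM of A630019I02Rik against 10.4 to 23.1, and 7.03 FPKM of Egr1 against 1.08 to 1.54. Exercised MM mouse 2246-4 had a mean log2 level of 4.76 over the markers of fibro-adipogenic cells and fibroblasts, against 5.44 to 5.54.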

How the results depend on the processing

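The interaction called 0 genes under every setting over all 16 mice, with 81 (mean of at least 5 FPKM) to 586 genes (no filter) at unadjusted p under 0.05, and 0 to 1 gene with 1 mouse left out. The average exercise effect called 573 genes with array weights, 153 with the number before the dash as a random block and 1 as a fixed block, so no share was taken from the fixed block's own calls. The share of raised genes with the smaller change in VV was 74.3% after median-ratio scaling and 75% after quantile normalization, 63.5% within shared numbers for the reported genes, and 72.1% to 90.9% with 1 mouse left out. The share of lowered genes with the smaller change in VV was 63.2% and 63.9% under these scalings, 38.8% with array weights, 61.1% with the random block, 41.8% within shared numbers, and 32.2% (without 2296-5) to 63.8% (without 2297-3) with 1 mouse left out. The median interaction of raised genes stayed below 0 in all of these, -0.29 to -0.12 with 1 mouse left out. Of 2148 values of named genes under the alternatives, 41 changed sign, in 16 genes, none of them called, and the cause was not tested. With the number before the dash as a fixed block these were Hbegf (0.37), Gpx3 (0.31), S100a9 (0.22), Fbxo21,Gm19648 (0.22), Dbp (0.09), Mvk (0.27), Sln (0.83), Hk2 (0.47), Camk2d (-0.15), Slc22a4 (0.29) and Ppargc1a (-0.014). With median-ratio scaling and with quantile normalization they were Rbm20 (0.0057 and 0.0081) and Slc22a4 (0.0020 and 0.034), and with array weights Hk2 (0.087), Camk2d (-0.0019) and Slc22a4 (0.040). With 1 mouse left out the reversed interactions ranged from -0.69 to 0.10 for Rrad, -0.46 to 0.29 for Sln, -0.19 to 0.97 for Ddit4, -0.52 to 0.035 for Hk2, -0.90 to 0.10 for Nr4a3, -0.10 to 0.013 for Rbm20, -0.025 to 0.11 for Camk2b, -0.030 to 0.10 for Camk2d, -0.18 to 0.10 for Slc22a4 and -0.25 to 0.19 for Ppargc1a. The depth behind the FPKM is unknown, and the interval of a typical gene, 0.40 to either side, sets what 4 mice a group can show.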

Other observations

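Of the remaining gene groups, blood and mast cell transcripts had interaction medians farthest from that of all genes (-0.04). Markers of Schwann cells and nerve had 6 of 6 below 0 (median -0.17), smooth muscle 8 of 10 (-0.15) and tendon 6 of 6 (-0.12). The 4 tested mast cell markers were all below 0 (median -0.57), among them the carboxypeptidase Cpa3 (-1.09) and the chymase Cma1 (-0.82), and the median was -0.31 without exercised MM mouse 2297-3 and -1.06 without sedentary VV mouse 2296-5. The 4 erythroid genes were also all below 0 (median -0.42), but the median was -0.09 without sedentary VV mouse 2074-5 and -0.77 without 2074-2, and their summed FPKM overlapped between exercised MM (59.1 to 110) and exercised VV mice (70.3 to 129). Genes of the unfolded protein and integrated stress response had 19 of 25 below 0 (median -0.08), with Asns far below the rest and the next lowest, the kinase Ern1, at -0.32. Angiogenesis genes had 17 of 24 below 0 (median -0.09), from the endothelial factor Sox17 (-0.84) to Angpt2, a ligand of the Tie2 receptor (0.36). After median-ratio scaling and quantile normalization 14 and 12 of these 24 were below 0. Endothelial markers had 7 of 12 below 0 (median -0.09) and satellite cell markers 5 of 7. Adipocyte markers had 10 of 10 below 0 (median -0.11), but 7 and 8 of 10 under median-ratio scaling and quantile normalization, and their median was 0.02 without exercised MM mouse 2246-4. With 1 mouse left out, the medians ranged from -0.14 to -0.02 for the stress response, -0.15 to -0.03 for angiogenesis, -0.12 to -0.03 for endothelium and -0.21 to -0.05 for satellite cells.

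Sources and repair of methionine oxidation were measured too. NADPH oxidase and other sources of reactive oxygen had 5 of 6 genes below 0 (median -0.11), with the oxidase subunit Cyba at -0.62, and methionine sulfoxide reductases with the MICAL oxidases had 6 of 7 below 0 (median -0.08), with the reductase Msra at -0.10. Median-ratio scaling and quantile normalization each left 3 of these 6 and 5 of these 7 below 0. Muscle differentiation and growth genes had 22 of 36 below 0 (median -0.04), atrophy and autophagy genes 12 of 22 (median -0.01) and circadian clock genes 9 of 17 (median -0.01). The medians of these last 3 lists turned above 0 under median-ratio scaling. None of the genes of these lists passed the interaction test.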
